A study of Mus musculus with 12 samples.

Results

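Splicing factor genes were followed in primary mouse CD8+ T cells, the cytotoxic T lymphocytes, in which *Creb1* had been knocked down and to which *trans*-vaccenic acid (TVA) had been added. The genes were chosen by symbol, as the protein-coding genes of the Srsf, Hnrnp, Sf3a and Sf3b, Prpf, U2af, Snrp, Snrnp and Lsm families, and by a mean expression of at least 1 FPKM over the 12 libraries. FPKM is the number of sequenced fragments scaled by gene length and library size. The choice left 84 genes of the 88 protein-coding genes with such a name, out of 11550 genes of any kind that reach that mean and 54532 genes listed. The rule uses the symbol and the level and no difference between groups, but the families were picked with earlier results of these data known. The level and the counts of called members are therefore given as a description, and no count was tested against that of all genes. The 84 genes comprised 20 Hnrnp, 13 Lsm, 12 Prpf, 11 Snrp, 10 Srsf, 9 Sf3, 7 Snrnp and 2 U2af genes.

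The cells were wild-type CD8+ T cells from the spleen and lymph nodes of C57BL/6 mice, activated in culture and transfected with either of 2 small interfering RNAs (siRNA). One was a non-targeting control (siNTC) and the other was directed against *Creb1* (si*Creb1*), a transient knockdown that leaves the gene itself intact. Each was followed by 24 h with 20 μM TVA or with the solvent DMSO, which gave 4 groups of 3 libraries, namely siNTC and si*Creb1* alone and each of them plus TVA. All 4 groups thus share activation and transfection, and no group was left untransfected. Neither the labels nor the methods say whether the 3 libraries of a group came from separate mice or cultures, so p-values measure the spread between these libraries, which may be technical.

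Introns are removed from pre-mRNA by the spliceosome, a complex assembled from small nuclear ribonucleoproteins (snRNPs), each an RNA with its own proteins. U1 binds the 5′ splice site, U2 with its SF3a and SF3b subunits and U2AF marks the branch site and the 3′ splice site, and the U4/U6.U5 tri-snRNP brings the catalytic centre. A ring of Sm proteins sits on U1, U2, U4 and U5 and a ring of LSm proteins on U6, while SR proteins and heterogeneous nuclear RNPs (hnRNPs) bind the transcript and favour or block the use of exons. T cells change the splicing of many transcripts when they are activated, and CREB, the product of *Creb1*, is a transcription factor that binds the cyclic AMP response element (CRE).

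*Creb1* was at 10.6 ± 0.359 FPKM for siNTC, 11.8 ± 0.711 for siNTC with TVA, 1.42 ± 0.314 for si*Creb1* alone and 1.55 ± 0.338 for si*Creb1* with TVA (mean ± SD of n = 3), so the libraries separated by their siRNA label. Markers of CD8+ T cells (*Cd3e*, *Cd3d*, *Cd3g*, *Cd8a*, *Cd8b1*, *Thy1* and *Lck*) were all present, with a summed FPKM of 2400 to 2554. Their sum was 2520 to 2554 in the 6 libraries with siNTC and 2400 to 2450 in the 6 with si*Creb1*. The single markers went both ways. Without TVA *Cd8b1* had a mean of 934 FPKM with siNTC and 835 with si*Creb1*, but *Cd8a* of 417 and 443. Group means of *Cd8b1*, *Cd3d*, *Cd3g* and *Lck* were lower with si*Creb1*, those of *Cd8a* and *Cd3e* higher, and those of *Thy1* overlapped. The platelet genes *Pf4* and *Ppbp* had a summed FPKM of 144 to 158 with siNTC and 91.8 to 118 with si*Creb1*. The 6 myeloid genes summed to 8.02 to 12.4 FPKM, the 5 B cell genes to 9.48 to 14.2, *Cd4* was at 0.921 to 1.75, the 2 NK cell genes summed to 3.83 to 5.24 and the 3 erythroid genes to 0.025 to 0.567, with *Hbb-bs* at 0 in all libraries. The reads recovered from the FPKM values were 16660234 to 20758033 per library with siNTC and 20760297 to 24602484 with si*Creb1*, so depth too differs with the siRNA. In a bulk sample, fewer cells of a type and less RNA per cell cannot be told apart.

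The splicing factor genes were among the more highly expressed genes of these cells. Their median of mean FPKM was 29.8, against 8.17 over all genes tested, and 77 of the 84 lay above the latter. The highest member of each family was *Hnrnpa1* (192 FPKM), *Srsf5* (159), *Snrpb* (107), *Lsm4* (100.5), *Sf3b2* (97.8), *Snrnp70* (78.4), *U2af1* (76.3) and *Prpf8* (58.3). Several hnRNPs stood close to *Hnrnpa1*, the RNA-binding protein that represses many exons: *Hnrnpa0* was at 178, *Hnrnpa2b1* at 172 and *Hnrnpf* at 156 FPKM. The least expressed members just inside the minimum were *Snrnp35* (2.74 FPKM), *Hnrnpll* (3.18) and *Lsm11* (4.58). The 3 just outside it were *Prpf40b* (0.566 FPKM), *U2af1l4* (0.316) and *Snrpn* (0.196), followed by *Srsf12* (0.193), so no member was near the limit. The coefficient of variation within a group had a median of 3.29% over the members (0.86% to 13.7%), and the fewest reads of a member in a library were 44.

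Promoters from RefSeq (GRCm38.p6, 250 bases before to 50 bases after a start) were matched to 71 of the 84 members, with 90 promoters. Both strands were searched for the CRE palindrome TGACGTCA, its shorter core TGACG and the E-box CACGTG. The palindrome contains this core on each strand. The palindrome was in 3 of the 90 promoters (3.33%) against 1.79% of all 32851 promoters, and in 4.23% of the 71 members against 3.84% of the tested genes with a promoter. The core TGACG was in 42.2% of the member promoters against 20.8% of all promoters, but in 45.1% of the members against 37.9% of the tested genes. The E-box was in 11.1% of the member promoters against 7.15% of all, and in 11.3% of the members against 12.4% of the tested genes. Promoters are shown for the only matched members with the palindrome, *Lsm2*, *Snrpa* and *Snrpg*. They are also shown for the matched members that passed the test in most comparisons below, *Hnrnph1* (at the start that matches the deposited gene start), *Hnrnpab* and *Sf3a1*. *Snrpd1*, called in 4 comparisons and so in more than any other member, had no matched promoter and was not searched. Capitals mark a match to any of the 3 motifs on either strand.
*Lsm2* (chr17:34981880-34982179, plus strand): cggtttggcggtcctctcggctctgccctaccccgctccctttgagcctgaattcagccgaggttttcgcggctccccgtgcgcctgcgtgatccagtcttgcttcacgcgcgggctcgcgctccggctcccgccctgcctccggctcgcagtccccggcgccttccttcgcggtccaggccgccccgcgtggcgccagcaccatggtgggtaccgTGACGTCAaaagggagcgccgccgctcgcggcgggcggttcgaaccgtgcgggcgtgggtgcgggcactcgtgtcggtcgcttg
*Snrpa* (chr7:27196222-27196521, minus strand): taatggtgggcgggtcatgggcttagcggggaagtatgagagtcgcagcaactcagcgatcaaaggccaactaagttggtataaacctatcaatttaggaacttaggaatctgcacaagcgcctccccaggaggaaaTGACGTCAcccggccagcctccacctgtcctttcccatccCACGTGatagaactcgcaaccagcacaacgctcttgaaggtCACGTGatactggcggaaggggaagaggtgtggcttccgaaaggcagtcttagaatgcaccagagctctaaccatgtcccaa
*Snrpg* (chr6:86371290-86371589, plus strand): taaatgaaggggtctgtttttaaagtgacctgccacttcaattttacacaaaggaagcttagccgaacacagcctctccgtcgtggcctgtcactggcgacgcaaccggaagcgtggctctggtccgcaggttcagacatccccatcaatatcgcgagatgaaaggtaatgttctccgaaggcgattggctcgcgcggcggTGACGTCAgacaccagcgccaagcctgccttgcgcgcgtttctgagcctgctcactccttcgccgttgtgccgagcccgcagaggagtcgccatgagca
*Hnrnph1* (chr11:50376740-50377039, plus strand): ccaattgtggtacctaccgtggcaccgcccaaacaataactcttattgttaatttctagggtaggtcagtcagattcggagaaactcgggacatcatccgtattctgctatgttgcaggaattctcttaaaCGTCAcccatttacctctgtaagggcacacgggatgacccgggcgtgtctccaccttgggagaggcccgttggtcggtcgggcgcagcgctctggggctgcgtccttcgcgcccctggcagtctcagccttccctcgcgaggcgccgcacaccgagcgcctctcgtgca
*Hnrnpab* (chr11:51606832-51607131, minus strand): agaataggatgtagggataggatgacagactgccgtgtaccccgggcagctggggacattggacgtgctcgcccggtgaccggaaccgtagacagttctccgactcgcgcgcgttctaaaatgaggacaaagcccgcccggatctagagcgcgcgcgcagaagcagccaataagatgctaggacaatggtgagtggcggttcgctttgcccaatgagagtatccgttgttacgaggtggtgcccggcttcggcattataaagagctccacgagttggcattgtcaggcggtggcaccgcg
*Sf3a1* (chr11:4160104-4160403, plus strand): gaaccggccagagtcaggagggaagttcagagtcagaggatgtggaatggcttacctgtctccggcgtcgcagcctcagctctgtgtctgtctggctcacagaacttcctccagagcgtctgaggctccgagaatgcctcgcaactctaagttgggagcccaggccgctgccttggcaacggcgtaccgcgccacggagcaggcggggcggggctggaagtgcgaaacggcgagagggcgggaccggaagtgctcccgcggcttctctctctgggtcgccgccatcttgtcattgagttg
The windows of *Hnrnpab* and *Sf3a1* held no match, which says only that these letters are not in these windows. *Lsm2* and *Snrpa* each had another promoter window without the palindrome. For *Lsm2* that other window (34981604 to 34981903) holds the deposited gene start (34981862), and the window shown begins after it. None of *Lsm2*, *Snrpa* and *Snrpg* passed the test in any comparison below. With knockdown in the absence of TVA, *Lsm2* differed by 0.16 on the log2 scale (limma adjusted p = 0.103), *Snrpa* by 0.09 (adjusted p = 0.296) and *Snrpg* by −0.07 (adjusted p = 0.51).

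The first comparison asks which splicing factor genes respond to TVA in cells with normal *Creb1*. In siNTC cells TVA raised 12 of the 84 members and lowered 0 (14.3%; limma, p adjusted by Benjamini-Hochberg over the whole table, threshold 0.05). Over all 11550 genes tested 7.38% were called, 4.49% higher and 2.88% lower. Among the 7480 genes with a mean of at least 5 FPKM 10.9% were called, and 12 of the 81 members in that range. The median log2 fold change was 0.05 over the members and −0.0057 over all genes tested, and 63 of the 84 members had a value above 0. The count depended on the fit: with TPM (FPKM rescaled to the same total in every library) it was 6 against 4.81% of all genes tested, and with only the libraries compared it was 3 (3.57%) against 3.19%, the level of the background. Summed platelet genes were at 151 to 158 FPKM in siNTC and at 144 to 149 in siNTC plus TVA libraries and summed myeloid genes at 8.83 to 9.47 and 8.02 to 8.24, neither overlapping, and their part in the result was not tested. Fold changes are on the log2(FPKM + 1) scale and are smaller than the true ratio for weakly expressed genes.

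The largest rise was that of *Snrpd1*, which encodes SmD1, a subunit of the Sm ring. Its FPKM was 61.2, 62.6 and 63.4 in the siNTC libraries and 81.4, 80.6 and 80.4 in the siNTC plus TVA libraries. The groups did not overlap, and the mean rose by 29.5% (log2 fold change 0.37, standard error 0.03, limma adjusted p = 7.29e-05). In si*Creb1* cells the libraries were at 69.0, 67.2 and 68.5 FPKM, and with TVA at 65.2, 69.9 and 72.2, so there the groups with and without TVA overlapped.

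Of the SR proteins, *Srsf7*, *Srsf3* and *Srsf1* rose. *Srsf7* was at 49.3, 56.1 and 58.7 FPKM in siNTC and at 65.3, 66.9 and 65.9 in siNTC plus TVA libraries, a rise of 20.7% with its lowest siNTC library standing apart from the other two (log2 fold change 0.27, limma adjusted p = 0.0126). *Srsf3* rose by 13.2% (log2 0.17, limma adjusted p = 0.0184) and *Srsf1*, which activates exons with purine-rich enhancers, by 11.1% (log2 0.15, limma adjusted p = 0.00752). Of the other 7 SR protein genes 6 had values above 0 and 1 below, from −0.02 (*Srsf11*) to 0.10 (*Srsf10*), none of them called.

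In the ring on U6, *Lsm6* was at 10.7, 11.4 and 11.99 FPKM in siNTC and at 13.3, 14.0 and 13.9 in siNTC plus TVA libraries, a rise of 20.9% (log2 fold change 0.25, limma adjusted p = 0.00689). All 7 genes of this ring had values above 0, with a median of 0.15, and *Lsm6* alone was called. *Sf3a1* (ENSMUSG00000002129, chr11:4160350-4182541 of GRCm38), which encodes a subunit of the SF3a complex of U2, was at 20.1, 20.1 and 20.2 FPKM in siNTC and at 22.9, 22.2 and 22.2 in siNTC plus TVA libraries. It rose by 11.5% (log2 fold change 0.15, limma adjusted p = 0.00234), and the other 12 genes of U2 and U2AF were not called.

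Among hnRNP genes 6 rose. *Hnrnpd* (AUF1, which also binds AU-rich elements in mRNA) rose by 12.7%, *Hnrnph1* (which binds runs of G) by 10.5%, *Hnrnpab* by 8.35%, *Hnrnpa1* by 7.57%, *Hnrnpul1* by 6.76% and *Hnrnpa2b1* by 6.39%. Their log2 fold changes were 0.17, 0.14, 0.11, 0.10, 0.09 and 0.09, and their limma adjusted p-values lay between 0.00518 (*Hnrnpab*) and 0.0477 (*Hnrnpul1*). No library of siNTC plus TVA overlapped with one of siNTC for any of the 12 called genes. These genes were picked by that same difference, so this is no further evidence, and the share over all genes tested was not counted. The calls of *Snrpd1*, *Srsf7*, *Lsm6*, *Hnrnpd*, *Srsf1*, *Sf3a1*, *Hnrnph1* and *Hnrnpab* were kept when any of the 12 libraries was left out, but of all 12 calls only those of *Snrpd1* and *Lsm6* were also kept in the 10 other settings of the fit. That of *Srsf3* was kept in 8 of 12 such fits, *Hnrnpa2b1* in 8, *Hnrnpa1* in 4 and *Hnrnpul1* in 1.

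**Figure D1:**
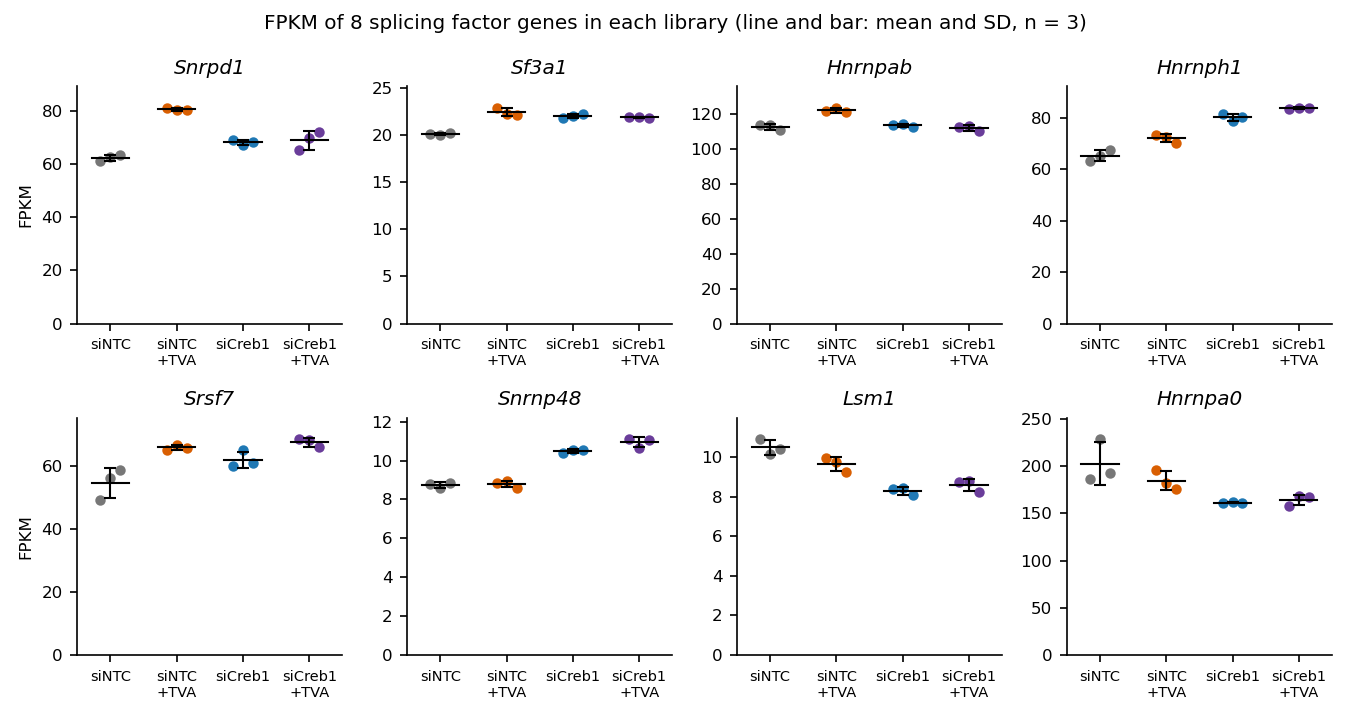
FPKM (y axis, from 0) of *Snrpd1*, *Sf3a1*, *Hnrnpab*, *Hnrnph1*, *Srsf7*, *Snrnp48*, *Lsm1* and *Hnrnpa0* in each library of the 4 groups (points), with the mean and SD of 3 libraries (line and bar). *Snrpd1* stands at 80.4 to 81.4 FPKM in siNTC plus TVA libraries and at 61.2 to 72.2 in the other 9 libraries, while *Snrnp48* and *Lsm1* separate by siRNA.

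In si*Creb1* cells 0 of the 84 members passed the test for TVA, where 0.537% of all genes tested did, 0.121% higher and 0.416% lower. An unadjusted p under 0.05 was reached by 9 members, and limma-voom on the recovered reads called 1 member (1.36% of all genes tested). Summed platelet genes were at 91.8 to 97.001 FPKM in si*Creb1* and at 111 to 118 in si*Creb1* plus TVA libraries and summed myeloid genes at 8.44 to 10.7 and 11.1 to 12.4, neither overlapping. Summed CD8+ T cell genes (2400 to 2408 and 2427 to 2450), B cell genes (10.2 to 11.4 and 11.8 to 12.8) and NK cell genes (3.83 to 4.27 and 4.76 to 5.07) did not overlap either. The part of these differences in the result was not tested. The median log2 fold change of the members was 0.01, with 45 values above 0 and 39 below, and the values ran from −0.19 (*Prpf38a*) to 0.12 (*Srsf7*). The 5 members with the smallest unadjusted p, none of them called, were *Sf3b1*, *Prpf38a*, *Srsf11*, *Srsf6* and *Snrpd2*. *Sf3b1*, the branch site subunit of U2, was at 69.7, 69.1 and 67.4 FPKM in si*Creb1* and at 74.4, 72.9 and 72.6 in si*Creb1* plus TVA libraries, groups that did not overlap (log2 fold change 0.09, limma adjusted p = 0.12). *Prpf38a*, a gene of the PRP38 family, was at 7.43, 7.13 and 6.92 FPKM and with TVA at 5.95, 6.004 and 6.49 (log2 fold change −0.19, limma adjusted p = 0.28). *Srsf11* and *Srsf6* had values of 0.08 and 0.09 (limma adjusted p = 0.384 and 0.42), and *Snrpd2* of −0.11 (limma adjusted p = 0.471).

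Whether the TVA effect itself differs between the siRNAs was tested as an interaction, in which the siNTC effect is subtracted from the si*Creb1* effect. It was called for 3 of the 84 members (3.57%), all lower, against 2.24% of all genes tested (0.459% higher and 1.78% lower). Among genes with a mean of at least 5 FPKM 3.8% were called, and 4 of the 81 members. With TPM 1 member was called against 1.32% of all genes tested, with quantile normalization 1 against 2.10%, without the mean-variance trend 1 against 1.78% and with limma-voom 5 against 3.86%. The interaction of *Snrpd1* was −0.35 (standard error 0.05, limma adjusted p = 0.00364), that of *Sf3a1* −0.16 (limma adjusted p = 0.0321) and that of *Hnrnpab* −0.13 (limma adjusted p = 0.0343). *Sf3a1* stood at 21.8 to 22.2 FPKM in all 6 libraries with si*Creb1*, above the 20.1 to 20.2 of siNTC and next to the 22.2 to 22.9 of siNTC plus TVA. *Hnrnpab* (ENSMUSG00000020358, chr11:51600100-51606847) was at 111 to 114 FPKM in siNTC, at 121 to 124 in siNTC plus TVA and at 110 to 114 in the 6 libraries with si*Creb1*. Only *Snrpd1* kept its interaction call whichever library was left out, while *Hnrnpab* kept it in 2 of 12 fits and *Sf3a1* in 0. The next members, not called, were *Lsm6* (−0.28, limma adjusted p = 0.0559) and *Hnrnpul1* (−0.13, limma adjusted p = 0.103). The median interaction was −0.06 over the members and 0.002 over all genes tested, with 61 of the 84 values below 0.

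**Figure D2:**
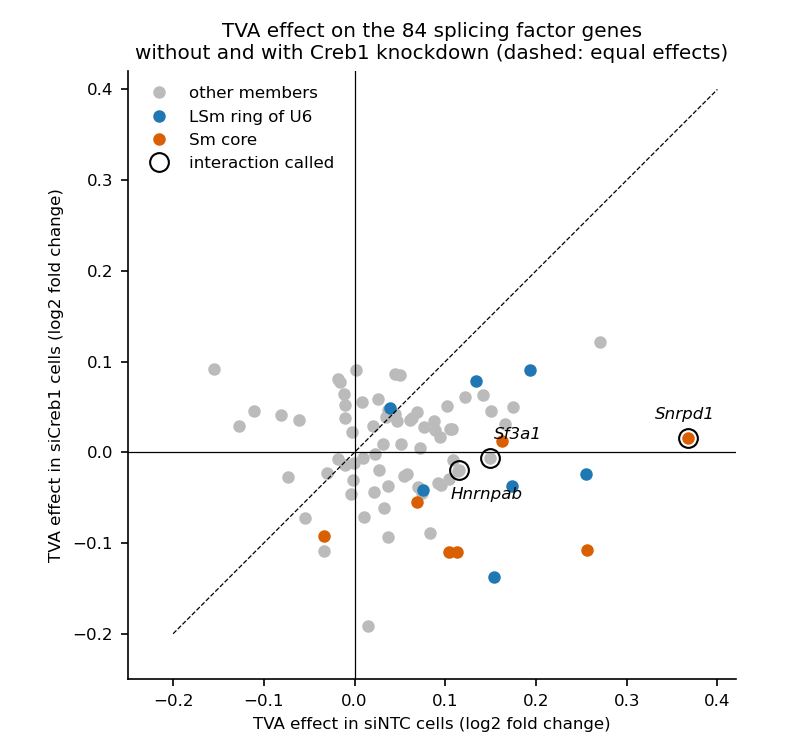
Response to TVA (log2 fold change) with siNTC (x axis) and with si*Creb1* (y axis) for the 84 members, with the Sm and U6 LSm rings coloured and the 3 members with a called interaction circled. Most members lie right of 0 and near 0 on the y axis. The axes share no library, and Pearson's r across the 84 genes, which are not independent replicates, was −0.02 (0.05 over all genes tested).

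The effect of the knockdown itself was first read in cells without TVA. There 23 of the 84 members differed between si*Creb1* and siNTC cells (27.4%), 20 higher and 3 lower, against 13.7% of all genes tested, 6.52% higher and 7.21% lower. Among genes with a mean of at least 5 FPKM 19.3% were called, and 26 of the 81 members. With only the libraries compared 11 members were called against 7.07% of all genes tested. The 3 siNTC libraries are also those compared for TVA in siNTC cells, and 9 members were called in both comparisons. A deviation of these libraries enters both comparisons and the interaction, so the repeated calls are not independent. The median was 0.05 over the members and −0.0011 over all genes tested, and with TPM 0.0995 and 0.0434. Summed platelet genes were at 151 to 158 FPKM in siNTC and at 91.8 to 97.001 in si*Creb1* libraries. The summed CD8+ T cell genes, which singly went both ways, were at 2527 to 2551 and 2400 to 2408. The part of these differences, and of the depth, in the results on the knockdown was not tested.

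hnRNP genes made up 10 of the 23, with 8 higher and 2 lower. *Hnrnph1* (ENSMUSG00000007850, chr11:50376990-50386528) was at 63.5, 65.1 and 67.6 FPKM in siNTC and at 81.5, 78.9 and 80.5 in si*Creb1* libraries, 22.8% higher without overlap (log2 fold change 0.29, limma adjusted p = 0.000135). Its relative *Hnrnph3* was 21.5% higher (log2 0.26, limma adjusted p = 0.00266) and *Hnrnpdl*, a relative of *Hnrnpd*, 17.7% higher (log2 0.23, limma adjusted p = 0.00263). *Hnrnpa3* was 17.97% higher, with a limit given below. *Hnrnpd*, *Hnrnpu*, *Hnrnpa1* and *Hnrnpa2b1* were 11.9%, 9.96%, 9.64% and 7.25% higher. In contrast *Hnrnpa0*, which binds AU-rich elements, was at 186, 228 and 193 FPKM in siNTC and at 161 in each of the 3 si*Creb1* libraries, and fell by 20.4% (log2 fold change −0.32, limma adjusted p = 0.0106). One siNTC library stood above the other two, and the call was kept without it. *Hnrnpf* fell by 6.43% (log2 −0.10, limma adjusted p = 0.0324).

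The other members followed by role. Among SR protein genes 5 were higher: *Srsf1* by 14.3%, *Srsf7* by 13.5%, *Srsf11* by 11.8%, *Srsf10* by 9.34% and *Srsf2* by 8.94%, and 9 of the 10 had values above 0 (median 0.12). Of the U1 snRNP, *Snrnp70* (U1-70K) was 14.1% higher (log2 0.19, limma adjusted p = 0.0105) and *Prpf39*, a U1-associated factor, 18.05% higher (log2 0.22, limma adjusted p = 0.011). *Snrnp48* (ENSMUSG00000021431, chr13:38204938-38227665), a protein of the U11/U12 particle that removes the rare minor introns, was at 8.78, 8.58 and 8.87 FPKM in siNTC and at 10.4, 10.5 and 10.6 in si*Creb1* libraries, 20.02% higher (log2 0.24, limma adjusted p = 0.000886). *Sf3a1* was 9.37% higher, *Prpf8*, the scaffold of the catalytic centre, 7.72%, *Lsm6* 14.0% and *Snrpd1* 9.36%. *Lsm1* (ENSMUSG00000037296, chr8:25785288-25803975), the subunit that defines the cytoplasmic LSm ring of mRNA decay, was at 10.9, 10.2 and 10.4 FPKM in siNTC and at 8.38, 8.41 and 8.07 in si*Creb1* libraries, and fell by 21.0% (log2 −0.31, limma adjusted p = 0.00109). No group overlapped for any of the 23 genes, which were picked by that same difference, and the share over all genes tested was not counted. The calls of *Hnrnpf*, *Srsf2*, *Srsf10*, *Snrpd1*, *Lsm6* and *Srsf7* were lost in at least 1 of the 12 fits without a library (kept in 7, 7, 1, 7, 9 and 1), and the other 17 were kept in all.

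In cells with TVA, 18 of the 84 members differed between si*Creb1* and siNTC (21.4%), 13 higher and 5 lower, against 10.1% of all genes tested, 4.64% higher and 5.51% lower. Among genes with a mean of at least 5 FPKM 15.6% were called, and 20 of the 81 members. The split depended on the scaling: with TPM 15 were higher and 1 lower, and with quantile normalization 18 and 3. The median of the members was −0.04 (−0.0122 over all genes tested) and turned to 0.01 with TPM, which also moved the median of all genes tested to 0.037. Summed platelet genes were at 144 to 149 FPKM in siNTC plus TVA and at 111 to 118 in si*Creb1* plus TVA libraries, and summed myeloid genes at 8.02 to 8.24 and 11.1 to 12.4, and their part was not tested.

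Of the higher members, *Snrnp35*, which like *Snrnp48* belongs to the U11/U12 particle, had the largest value but the lowest expression, with 1.77, 2.54 and 2.26 FPKM in siNTC plus TVA and 2.75, 3.23 and 3.73 in si*Creb1* plus TVA libraries (log2 fold change 0.41, standard error 0.11, limma adjusted p = 0.0464). *Snrnp48* was 24.4% higher (log2 0.29, limma adjusted p = 0.000705) and *Prpf39* 27.4% higher (log2 0.32, limma adjusted p = 0.00312). *Srsf11* was at 27.1, 27.4 and 28.03 FPKM in siNTC plus TVA and at 33.1, 33.0 and 32.5 in si*Creb1* plus TVA libraries (log2 0.25, limma adjusted p = 0.000894). *Snrnp70*, *Hnrnph3*, *Hnrnph1*, *Prpf38b* and *Sf3b1* were 18.2%, 19.1%, 16.2%, 13.9% and 11.7% higher, *Hnrnpa3* 21.0%, and *Srsf6*, *Srsf2* and *Prpf8* 10.8%, 9.70% and 6.87%. Of the lower members, *Snrpd3*, which pairs with SmB in the Sm ring, was at 30.6, 34.2 and 32.0 FPKM in siNTC plus TVA and at 28.2, 23.9 and 26.9 in si*Creb1* plus TVA libraries and fell by 18.4% (log2 −0.28, limma adjusted p = 0.0266). *Snrpd1* fell by 14.5% (log2 −0.22, limma adjusted p = 0.00354), *Lsm1* by 10.8% (log2 −0.15, limma adjusted p = 0.0413), *Hnrnpab* by 8.31% (log2 −0.12, limma adjusted p = 0.0047) and *Hnrnpf* by 6.14% (log2 −0.09, limma adjusted p = 0.0498). The calls of *Snrpd3*, *Lsm1*, *Hnrnpf*, *Prpf8*, *Srsf2*, *Srsf6* and *Snrnp35* were lost in at least 1 fit without a library (kept in 8, 3, 2, 8, 8, 8 and 3 of 12), and the other 11 were kept in all.

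The knockdown comparisons without and with TVA share no library. They had 12 called members in common, 52.2% of those called without TVA and 66.7% of those called with TVA. The same overlap was not counted over all genes tested. Of the 12 members 11 had the same direction in both, namely *Hnrnph1*, *Hnrnph3*, *Hnrnpa3*, *Snrnp48*, *Prpf39*, *Snrnp70*, *Srsf11*, *Srsf2* and *Prpf8* higher and *Lsm1* and *Hnrnpf* lower. The other was *Snrpd1*, higher by 0.13 without TVA and lower by 0.22 with it, the member with the largest called interaction above. Pearson's r of the knockdown effects was 0.655 across the 84 members and 0.279 over all genes tested, a description across genes. The members are more highly expressed than most genes tested, and r was not computed over genes of like expression. *Hnrnpa0* was at 158, 168 and 167 FPKM in si*Creb1* plus TVA and at 196, 182 and 176 in siNTC plus TVA libraries, which did not overlap, but it was not called there (log2 −0.17).

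**Figure D3:**
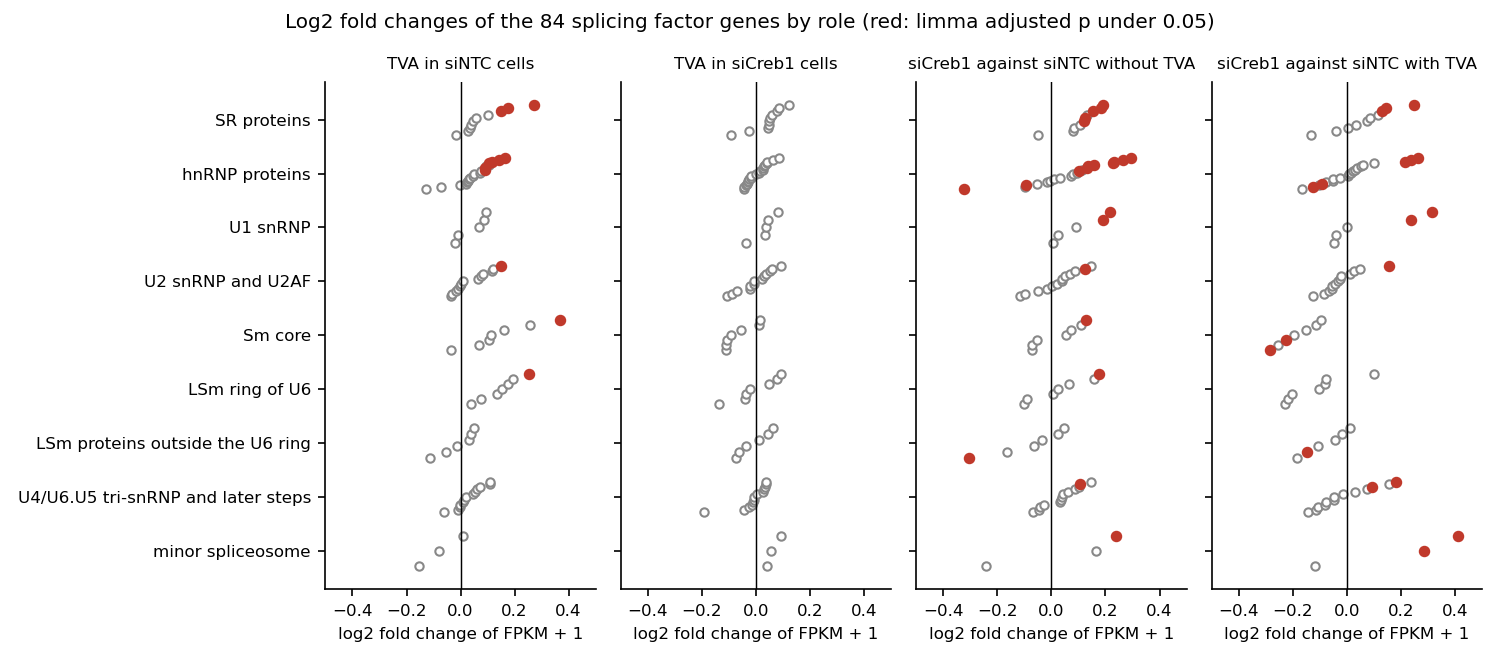
Log2 fold change of FPKM + 1 (x axis) of each of the 84 members by role (y axis) in 4 comparisons, one point a gene, red where the limma adjusted p is under 0.05. The 7 Sm genes all lie left of 0 for knockdown with TVA, while called SR protein and U1 genes all lie right of 0.

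The Sm ring genes, whose products are built into 1 ring together, were highest as a sum in siNTC plus TVA cells. Their summed FPKM was 433 ± 22.6 for siNTC, 477 ± 8.91 for siNTC with TVA, 439 ± 7.12 for si*Creb1* alone and 422 ± 18.6 for si*Creb1* with TVA (mean ± SD of n = 3). The libraries of siNTC plus TVA (470 to 487) lay above those of the other groups (408 to 449). All 7 had lower values with knockdown in the presence of TVA, with a median of −0.20 and 2 called (*Snrpd3* and *Snrpd1*), and all 7 had an interaction below 0, with a median of −0.21 and 1 called (*Snrpd1*). *Snrpe* had the lowest interaction of any member, −0.36, but a wide spread between libraries (standard error 0.12, limma adjusted p = 0.179). These directions of all 7 were the same with TPM, quantile normalization, median-of-ratios size factors and limma-voom. Those settings refit the same libraries, so their agreement is no separate evidence. The knockdown value with TVA and the interaction also share the libraries with TVA and are not independent. Of all 84 members 48 had a knockdown value below 0 with TVA and 61 an interaction below 0. The LSm ring of U6 had a summed FPKM of 181 ± 16.5, 201 ± 7.41, 186 ± 4.75 and 178 ± 5.49 in the same order of groups, with 6 of 7 genes lower with knockdown in the presence of TVA and 0 called. *Lsm4* among them was at 107, 113 and 107 FPKM in siNTC plus TVA and at 92.3, 96.2 and 89.8 in si*Creb1* plus TVA libraries (log2 −0.23, limma adjusted p = 0.0834).

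The summed FPKM of the 10 SR protein genes was 552 ± 20.4 for siNTC, 584 ± 4.76 for siNTC with TVA, 597 ± 8.36 for si*Creb1* alone and 623 ± 2.6 for si*Creb1* with TVA, where the highest group did not overlap with any other (mean ± SD of n = 3). The 5 U1 genes summed to 123 ± 3.93, 125 ± 0.608, 136 ± 3.07 and 139 ± 0.265 FPKM in the same order, so all 6 libraries with si*Creb1* (133 to 139) lay above the 6 with siNTC (118 to 126). Most of the U1 sum was *Snrnp70*, which was at 67.7, 74.9 and 75.9 FPKM in siNTC and at 73.3, 71.5 and 71.8 in siNTC plus TVA, then at 80.6, 85.5 and 83.1 in si*Creb1* and at 84.8, 85.4 and 85.8 in si*Creb1* plus TVA libraries. The hnRNP genes summed to 1516 ± 7.33, 1563 ± 11.0, 1536 ± 6.98 and 1549 ± 5.96 FPKM. Over all 84 members the sums were 3720 ± 62.6, 3880 ± 21.3, 3819 ± 25.6 and 3842 ± 23.3 FPKM. The sums here and above were not rescaled, though FPKM totals over all genes differ between libraries. Factors to a common total run from 0.9445 (a siNTC plus TVA library) to 1.0414 (a si*Creb1* plus TVA library). The order of the groups in the hnRNP sums and in those of all members is therefore uncertain.

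In all 31 members were called in at least 1 comparison and 53 in none. The same count over all genes tested was not made, so whether 31 is many cannot be told. Among the highest of each family, *Srsf5*, *Snrpb*, *Lsm4*, *Sf3b2* and *U2af1* were called in none. *Sf3b2* was at 94.9 to 103 FPKM over all 12 libraries, and *Snrpb* was lowest in si*Creb1* plus TVA cells (99.7, 99.4 and 102 FPKM; log2 −0.11 against siNTC plus TVA, limma adjusted p = 0.0916). Of the 2 other members of the minor spliceosome, *Snrnp25* was called in no comparison and *Snrnp35* only for knockdown with TVA. Without TVA the knockdown value of *Snrnp35* was 0.16 (limma adjusted p = 0.392), the same sign as that of *Snrnp48*. That of *Snrnp25* had the opposite sign, −0.24 without TVA and −0.12 with it. The differences between these genes were not tested. Of 7 other tested minor spliceosome genes, outside these families, 3 had knockdown values above 0 and 4 below without TVA (median −0.11), with 1 called higher and 1 lower.

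Several members have near-identical copies elsewhere in the genome, mostly processed pseudogenes, between which reads may have been divided. Such copies (at least 200 aligned bases at 97% identity or more to a member's transcript in GENCODE vM21) were found for 21 of the 84 members, and for 18 they held more than 1% of the member's FPKM. *Hnrnpa3* is the extreme case, with 15 copies whose summed FPKM was 233 against 19.1 for the gene itself, of which *Gm6793* held 106 and *Gm12960* 53.6. Copies came to 224% of the FPKM of *Lsm5*, 66.5% of *Snrpe*, 54.4% of *Hnrnpk*, 47.2% of *Snrpg*, 31.5% of *Srsf5*, 31.1% of *Srsf3* and 18.5% of *Hnrnpa1*, so the levels of these genes are uncertain. When the reads of the copies were added to each member, an alternative chosen after seeing the data, *Hnrnpa3* was at 70.2, 66.5 and 70.1 FPKM for siNTC, 79.5, 78.7 and 80.6 for siNTC with TVA, 79.3, 78.9 and 80.3 for si*Creb1* alone and 79.4, 80.9 and 83.6 for si*Creb1* with TVA. Counted so, its 3 siNTC libraries lay below the other 9. Its TVA effect in siNTC cells went from 0.05 (limma adjusted p = 0.528) to 0.21 (limma adjusted p = 0.000887), its knockdown effect with TVA from 0.26 (limma adjusted p = 0.00393) to 0.03 (limma adjusted p = 0.525) and its interaction from 0.04 to −0.17 (limma adjusted p = 0.0434), while the knockdown effect without TVA stayed called (0.23 and 0.20). Of the other members only 2 changed a call, both for knockdown with TVA: *Hnrnpf* (−0.09, limma adjusted p = 0.0505) was lost and *Snrpe* (−0.25, limma adjusted p = 0.0396) was gained.

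**Figure D4:**
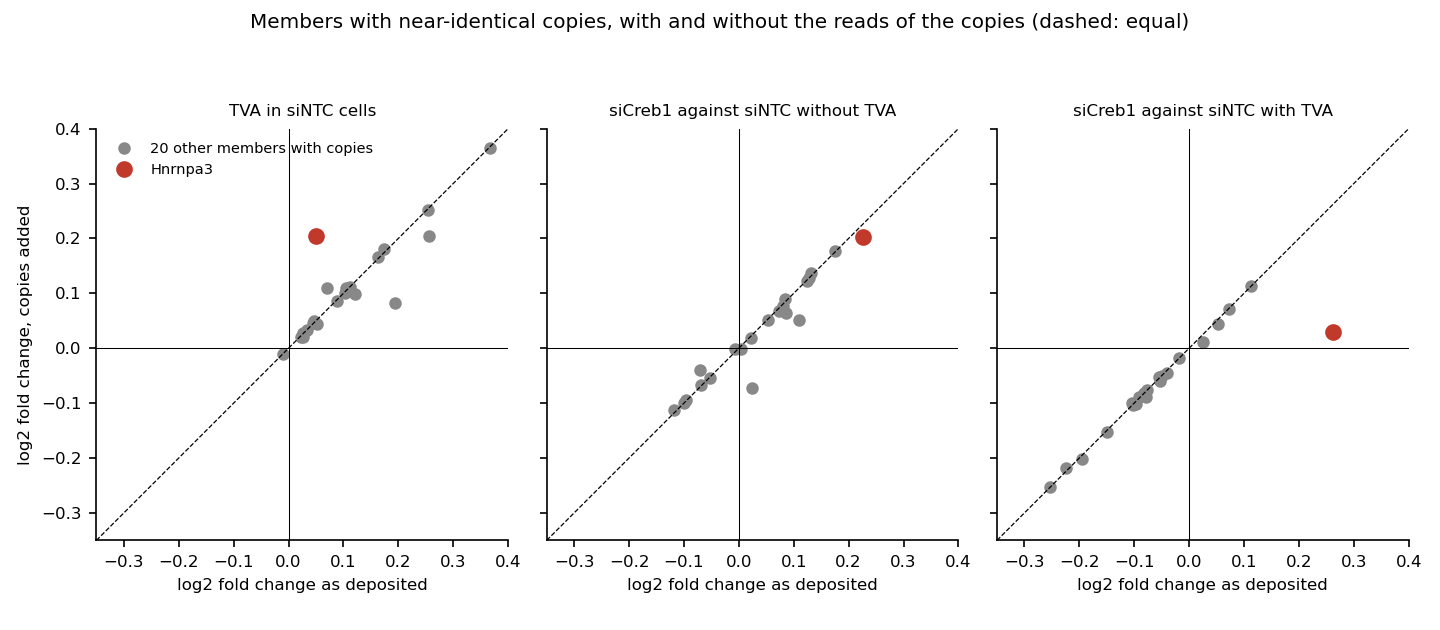
Log2 fold changes of the 21 members with near-identical copies as deposited (x axis) and with the reads of the copies added (y axis) in 3 comparisons. *Hnrnpa3* (red) lies off the dashed line of equal values for TVA in siNTC cells (0.05 and 0.21) and for knockdown with TVA (0.26 and 0.03).

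Gene bodies of 19 members overlap another tested gene, 15 of them on the opposite strand, and whether the counting used strand is not given in the sources used here. The partner was above the member for *Prpf39* (*Fkbp3* at 10.4 FPKM against 9.47) and *Sf3a2* (*Plekhj1* at 35.3 against 34.6). Next, relative to the member, came *Prpf6* (*Zfp512b* at 11.7 against 27.4), *Lsm14a* (*2310043P16Rik* at 12.6 against 32.04), *Sf3b3* (*Cog4* at 8.79 against 23.15), *Srsf2* (*Mettl23* at 29.45 against 80.1) and *Hnrnph3* (*Rufy2* at 5.33 against 14.9), all on the opposite strand. Reads of these pairs cannot be told apart without strand, so the values of *Prpf39*, *Srsf2* and *Hnrnph3* given above are uncertain to that extent.

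Other genes of the splicing machinery, outside these families, were taken from a list of 134, of which 131 were tested. With TVA in siNTC cells 5 of them rose and 0 fell (3.82%, against 7.38% of all genes tested): *Magohb* of the exon junction complex (0.31), *Ppil1* of the activated spliceosome (0.28), *Tra2a*, an SR-related regulator (0.18), *Taf15* (0.18) and *Luc7l2* (0.13). In si*Creb1* cells limma called 0 of the 131 for TVA (0.537% of all genes tested), and 10 had an unadjusted p under 0.05. The knockdown without TVA raised 22 and lowered 3 (19.1%, against 13.7% of all genes tested), and with TVA it raised 18 and lowered 6 (18.3%, against 10.1%). Among genes with a mean of at least 5 FPKM 19.3% were called without TVA and 15.6% with it. The other splicing genes were not counted in that range, so these shares are not read as a trait of the list. The largest values without TVA were those of *Luc7l2* (0.34) and *Luc7l3* (0.33), which associate with U1, *Arglu1* (0.32), *Pnn* (0.31) and *Rbmx* (0.29), and with TVA those of *Arglu1* (0.36), *Luc7l2* (0.33), *Srrm2*, an SR-related protein (0.28), *Rbmx* (0.26) and *Clk2*, a kinase of SR proteins (0.26). All 5 genes listed as associated with U1 were called higher without TVA and 4 of them with TVA. Some other groups of the list were mostly lower. Of 9 catalytic step helicases and step factors, 1 had a value above 0 and 8 below without TVA (median −0.11, 1 called lower). Of 17 genes of the activated spliceosome 4 had values above 0 and 13 below without TVA (median −0.05, 1 called lower). Over the 131 genes 79 values were above 0 and 52 below without TVA, and 67 and 64 with it. *Luc7l2* was at 22.3 ± 0.655 FPKM for siNTC, 24.4 ± 0.68 for siNTC with TVA, 28.4 ± 1.03 for si*Creb1* alone and 30.8 ± 0.245 for si*Creb1* with TVA (mean ± SD of n = 3). The interaction was called for *Ppil1* alone (−0.30, limma adjusted p = 0.0423).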

How the data were processed

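RNA-seq was measured in 4 groups of 3 libraries. The authors deposited FPKM values per gene, one file per library, on GRCm38 (mm10) per the submitters' processing notes; aligner, counter, annotation and strand are not given in the sources used here. Members and lists were chosen with earlier results of these data known. The 11550 genes with a mean of at least 1 FPKM were log2-transformed with a pseudocount of 1 and fitted in R 4.3.3 by limma 3.58.1 (a mean-variance trend in eBayes), 1 coefficient per group and all 12 libraries in one fit. Tests were two-sided, with p-values Benjamini-Hochberg adjusted over all genes tested and a threshold of 0.05. A permutation test of 3 libraries against 3 cannot go below p = 0.1 and was not used. FPKM times gene length was a whole multiple of 1 step (tolerance 0.05) for at least 99.995% of genes per library, which gave the reads. The fit was also run on simulated reads with changes larger than those of the members, which does not measure how it performs at their size. Genes named were, per comparison, called members (at most 25), or the 5 with the smallest unadjusted p where fewer than 5 were called, the highest of each family, those nearest the expression minimum, *Creb1*, and at most 5 called genes of other splicing lists. Alternatives were TPM, quantile normalization, size factors, a pseudocount of 0.1, other expression filters (above 0 in at least 1 library, or a mean of at least 5 FPKM), no trend, limma-voom, only the libraries compared, the replicate number as a block, each library left out, and copies added. Replicate numbers come from the labels. Promoters and annotation came from RefSeq (GRCm38.p6) and GENCODE vM21. Figures were drawn with matplotlib.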

Additional observations from a re-analysis of the deposited data

Results flagged for a closer look

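The response to TVA differed between the siRNAs by a test of the difference itself (limma interaction, siNTC subtracted from si*Creb1*) for *Snrpd1* (−0.35), *Sf3a1* (−0.16) and *Hnrnpab* (−0.13), 3 of 84 members against 2.24% of all genes tested. Among genes with a mean of at least 5 FPKM it was 4 of 81 members against 3.8%, so the count is not read as a trait of the members. *Snrpd1* kept the call in all 12 fits without a library, *Hnrnpab* in 2 and *Sf3a1* in 0.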

How the results depend on the processing

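Of 56 calls of a member in a comparison, 37 were kept in all 12 fits without a library and 24 in all 10 other settings apart from copies added, which lost 2, and no called value changed sign. For TVA in siNTC cells the 12 called members became 6 with TPM (4.81% of all genes tested) and 3 with a fit of only the libraries compared (3.19% of all), which has fewer residual degrees of freedom, and 2 of the 12 were kept in all 10. For TVA in si*Creb1* cells 0 became 1 with limma-voom (1.36% of all). For knockdown without TVA the 23 became 11 in the fit of only the libraries compared (7.07% of all), and with TPM the median went from 0.05 to 0.0995 as that of all genes tested went from −0.0011 to 0.0434. For knockdown with TVA the median of −0.04 became 0.0149 with TPM, as that of all genes went from −0.0122 to 0.037. The 3 called interactions became 1 with TPM (1.32% of all), 1 without the trend (1.78%), 1 with quantile normalization (2.10%) and 5 with limma-voom (3.86%), and ranged from 1 to 3 over the fits without a library, with 1 when any library of siNTC plus TVA, si*Creb1* or si*Creb1* plus TVA was left out. Apart from those of construction named here, the cause was not tested. Same-numbered libraries did not deviate together (r −0.06 to 0.06 over 18 pairs), so the numbers were not taken as pairs. With the replicate number as a block 9, 0, 22, 21 and 3 members were called for TVA with siNTC and with si*Creb1*, knockdown without and with TVA, and the interaction, against 5.95%, 0.294%, 11.99%, 8.42% and 1.69% of all genes tested. A fit of only the libraries compared could not be made for the interaction, which uses all 4 groups. Precision is limited by the spread of 3 libraries a group.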
